A study of Mus musculus with 6 samples.

Results

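Mast cells and basophils store carboxypeptidase, serine proteases and histamine in cytoplasmic granules and release them when antigen crosslinks IgE bound to their high-affinity receptor. The 10 genes described here encode 6 granule proteases (Cpa3, Cma1, Mcpt4, Tpsb2, Mcpt8 and Prss34), the enzyme that makes histamine and the transporter that loads it (Hdc and Slc18a2), and 2 chains of the IgE receptor (Ms4a2 and Fcer1a). They were taken as a named set, with 1 probe set for each gene, from 19938 genes measured on 6 arrays. All 10 were measured, and none was removed by a filter. Both cell types arise in bone marrow from progenitors that also give rise to other myeloid cells. Transcripts of some granule genes, Cpa3 in particular, are known to appear in progenitors before granules form, whereas connective tissue mast cell proteases such as Cma1 and Mcpt4 mark mature mast cells.

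The arrays measured RNA of cKit+Sca1+Lin- (KSL) cells, the fraction of mouse bone marrow that holds blood stem cells and the earliest progenitors. The 3 samples labelled double knockout (DKO) came from mice with floxed Runx1 and Runx3 (Runx1fl/fl;Runx3fl/fl) that carried the Mx1-Cre transgene, and the 3 wild-type (WT) samples from littermates with the same floxed genes and no Mx1-Cre. The strain background was C57BL/6, after 3 or more generations of backcrossing. The floxed alleles are thus shared by both groups, and the Cre transgene, which is driven by an interferon-responsive promoter active in many cell types, is carried by the DKO mice alone, so deletion and transgene cannot be told apart. Per the labels' protocols, 4-week-old mice received 600 µg of pIpC, a double-stranded RNA analogue that induces Cre, on 7 alternate days, with no separate regimen given for either genotype, while the sample descriptions call the cells untreated. How long after the last injection the cells were collected is not stated in the labels used here. Each WT sample was pooled from 3 mice, pooling of DKO samples is not stated, and the design text counts 6 mice in all. RNA was amplified and hybridised to Affymetrix Mouse Gene 1.0 ST arrays, and every value below is a log2 signal, so a difference of 1 is a 2-fold change.

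The arrays correlated at 0.993 to 0.995 within DKO, at 0.989 to 0.991 within WT and at 0.976 to 0.98 between the groups, across 19938 genes that are not independent replicates. Runx1 signal was 9.22, 9.37 and 9.28 in the samples labelled DKO, against 8.49, 8.53 and 8.38 in WT. Runx3 signal was 7.40, 7.40 and 7.34 in the samples labelled DKO, against 7.53, 7.59 and 7.47 in WT. The higher Runx1 signal goes against the label, but a signal averaged over a whole transcript cannot check the loss of some exons, and the probes' positions were not used here. DKO therefore means labelled DKO throughout. Over all genes 9.71% were called higher and 7.69% lower, by the rule given below. Of 6 tested markers that sort or divide KSL cells 4 were called higher, Slamf1 (1.95), Cd48 (1.46), Ptprc (0.76) and Kit (0.73). Of the others Flt3 was called lower (-1.32) and Cd34 did not pass (0.02). The part of these markers in the granule gene differences was not tested. Kit was at 10.35 to 10.72 in DKO and 9.63 to 9.85 in WT, above the array medians of 5.98 to 6.05, and Ly6a, the gene of Sca1, is not analysed here. Of 4 tested genes of the sex chromosomes, the Y-linked Eif2s3y, Kdm5d and Uty were called higher in DKO (0.44, 0.67 and 0.82). Their mean WT signals of 8.27, 7.62 and 6.79 also stood above the array medians. Xist, at means of 4.30 in DKO and 4.74 in WT, did not pass (-0.44, limma adjusted p = 0.0643). Its values, 4.21 to 4.97, lay near or below the array lower quartiles of 4.89 to 4.97, so the size of that difference is uncertain. The part of sex in the granule gene differences was not tested.

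RefSeq (GRCm38.p6) gives a start, with the 250 bases before it, for 9 of the 10 genes. Gene spans reach past that start for some of them, so that part of the window lies inside the gene: 250 bases for Hdc and Mcpt8, 71 for Ms4a2, 28 for Cpa3 and 3 for Fcer1a. The 4 windows below are from called genes, 2 that rose and 2 that fell, and lie wholly or mostly outside the gene. The window of Ms4a2, also called and with 71 bases inside the gene, is not printed. Capitals mark the letters TGTGGT or TGCGGT, the core bound by Runx proteins, and AGATAA or TGATAA, the core bound by GATA proteins, on either strand. The Cpa3 window lies on the minus strand of chr3:20242182-20242431, that of Slc18a2 on the plus strand of chr19:59260628-59260877, that of Prss34 on the plus strand of chr17:25298144-25298393 and that of Fcer1a on the minus strand of chr1:173227230-173227479.
Cpa3: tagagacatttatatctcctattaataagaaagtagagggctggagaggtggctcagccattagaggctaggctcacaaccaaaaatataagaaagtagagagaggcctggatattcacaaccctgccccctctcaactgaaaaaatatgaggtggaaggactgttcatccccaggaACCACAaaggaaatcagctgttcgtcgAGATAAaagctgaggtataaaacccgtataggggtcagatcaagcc
Slc18a2: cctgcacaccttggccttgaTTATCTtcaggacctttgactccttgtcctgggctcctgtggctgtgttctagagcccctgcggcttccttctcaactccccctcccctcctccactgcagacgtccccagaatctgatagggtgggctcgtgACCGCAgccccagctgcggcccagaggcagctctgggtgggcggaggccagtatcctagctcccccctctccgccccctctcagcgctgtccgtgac
Prss34: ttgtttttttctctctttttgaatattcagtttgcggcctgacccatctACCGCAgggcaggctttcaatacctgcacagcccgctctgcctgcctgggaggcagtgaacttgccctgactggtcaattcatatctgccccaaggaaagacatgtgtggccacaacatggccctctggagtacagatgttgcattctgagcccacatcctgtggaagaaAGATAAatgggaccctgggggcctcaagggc
Fcer1a: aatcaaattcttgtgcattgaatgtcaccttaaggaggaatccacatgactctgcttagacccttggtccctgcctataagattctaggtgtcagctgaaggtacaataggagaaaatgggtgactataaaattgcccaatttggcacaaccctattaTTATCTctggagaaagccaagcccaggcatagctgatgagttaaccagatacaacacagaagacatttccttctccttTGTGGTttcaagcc

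Each of these printed windows held 1 Runx and 1 GATA core, a likeness that rests on which windows were printed. The windows of the other called genes, Ms4a2, Mcpt8 and Hdc, did not hold both. The share of all promoters holding both cores was not counted. The Runx core began 73 bases before the start in Cpa3, 97 in Slc18a2, 201 in Prss34 and 14 in Fcer1a, and the GATA core 46, 230, 31 and 92 bases before it. Of the other windows, that of Ms4a2 held 3 GATA and 0 Runx cores, that of Mcpt8 2 Runx and 0 GATA cores, that of Mcpt4 1 of each, and those of Hdc and Cma1 neither. Of 32851 promoters of this length in the same table, 18.6% held a Runx core and 16.6% a GATA core. A match describes the letters of the window and does not show that a factor bound there.

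Between the DKO and WT samples the 10 genes split in both directions. In DKO, Cpa3, Ms4a2, Slc18a2 and Hdc rose, by 10.7-fold, 4.72-fold, 2.76-fold and 2.41-fold. Mcpt8 and Prss34 fell, to 0.400 and 0.565 of the WT signal. Fcer1a, dim in both groups, fell to 0.622 of it, a call lost with 7 of 15 alternatives. The mature mast cell proteases Cma1, Mcpt4 and Tpsb2 did not pass the test and had dim signals in both groups. Calls are limma's adjusted p below 0.05, two-sided, with Benjamini-Hochberg adjustment over 19938 genes. By that rule 4 of 10 genes of the set were called higher, where the background over all genes was 9.71%, and 3 of 10 lower, where the background was 7.69%. These backgrounds are 1936 and 1533 genes, a split that was 2254 and 1121 with median centring and 1588 and 1546 with quantile normalisation. All DKO values lay above all WT values for 5 of the 10, against 16.2% of all genes, and below them for 3 of the 10, against 19.6%, so that 8 of the 10 showed no overlap, against 35.8%. The median difference of the set was 0.10, beside -0.04 over all genes. As these are bulk samples, fewer cells of a type and less RNA per cell cannot be told apart.

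**Figure D1:**
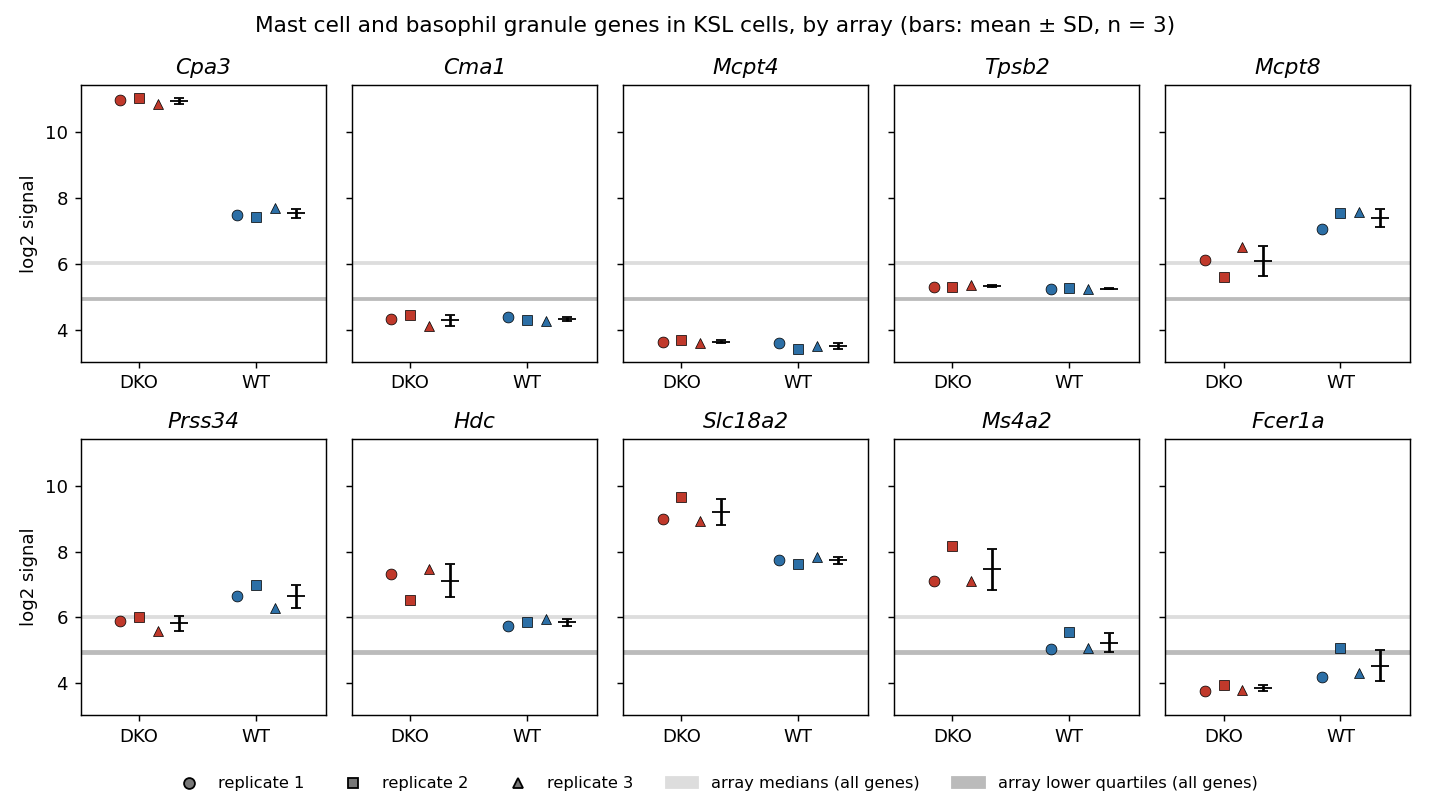
Log2 signal (vertical axis) of each granule gene on each array, DKO left of WT, with the symbol giving the replicate number and the bar the mean ± SD (n = 3). Grey bands give the range over arrays of the median and of the lower quartile of all genes. Cpa3 stands near 11 in DKO, whereas Cma1 and Mcpt4 lie under the lower quartiles on all 6 arrays.

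Cpa3 encodes carboxypeptidase A3, the exopeptidase that mast cell granules hold in bulk. Its signal was 10.97, 11.06 and 10.87 in DKO, against 7.48, 7.43 and 7.69 in WT. All 3 DKO values stood far above the highest WT value, and the replicates of each group lay close together. The difference was 3.43 (SE 0.1, 95% interval 3.20 to 3.65, limma adjusted p = 5.6e-07). It ranked 2 among the rises of all genes, behind 1 gene. Its mean signal lay at the 99.2 percentile of all genes in DKO and at the 79.9 percentile in WT, so the transcript was already well above the array median in WT cells.

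The other mast cell proteases behaved differently. Cma1, a chymase of connective tissue mast cells, was at 4.31, 4.43 and 4.11 in DKO, against 4.39, 4.30 and 4.26 in WT. Mcpt4, the main chymase of the same cells in mice, was at 3.63, 3.67 and 3.59 in DKO, against 3.60, 3.41 and 3.49 in WT. Both genes lay below the lower quartile of all genes, 4.89 to 4.97, on all 6 arrays, and their groups overlapped. Tpsb2, a tryptase that binds the granule's heparin matrix, was at 5.29, 5.30 and 5.35 in DKO, against 5.22, 5.25 and 5.23 in WT. Its groups did not overlap, but they lay only 0.07 apart and below the array medians.

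The intervals show what size of change these 3 signals leave room for. The difference was -0.04 for Cma1 (95% interval -0.27 to 0.19, limma adjusted p = 0.849), 0.13 for Mcpt4 (-0.07 to 0.33, adjusted p = 0.372) and 0.07 for Tpsb2 (-0.10 to 0.25, adjusted p = 0.578). The upper bounds stand for 1.14-fold, 1.25-fold and 1.19-fold changes of signal, far under the rise of Cpa3. The table holds no detection call, and a signal this dim may understate a change of transcript. The sign of the Cma1 difference turned to 0.036, 0.0097 and 0.031 with quantile normalisation, median centring and cyclic loess, and to 0.052 without DKO replicate 3.

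Mcpt8 and Prss34 encode serine proteases whose expression in mice is largely that of basophils. Mcpt8 signal was 6.11, 5.61 and 6.51 in DKO, against 7.07, 7.55 and 7.57 in WT. The groups did not overlap, and DKO replicate 3 came nearest to the WT samples. Mcpt8 fell by 1.32 (SE 0.215, limma adjusted p = 0.00313), the 49th largest fall among all genes.

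Prss34 signal was 5.89, 6.00 and 5.57 in DKO, against 6.65, 7.00 and 6.29 in WT, again with no overlap. It fell by 0.82 (SE 0.174, limma adjusted p = 0.0109). Without WT replicate 2 it was at -0.65, its smallest size, and the adjusted p came nearest to the threshold without DKO replicate 3, at 0.0495.

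Histamine is made by histidine decarboxylase, the product of Hdc, and is loaded into granules by the vesicular monoamine transporter encoded by Slc18a2. Hdc signal was 7.33, 6.54 and 7.48 in DKO, against 5.73, 5.86 and 5.95 in WT. DKO replicate 2 was the lowest of its group and still above every WT value. The rise was 1.27 (SE 0.209, limma adjusted p = 0.00332), and it was 1.56 without DKO replicate 2.

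Slc18a2 signal was 8.99, 9.65 and 8.95 in DKO, against 7.74, 7.62 and 7.83 in WT, so DKO replicate 2 was here the highest sample. The rise was 1.46 (SE 0.172, limma adjusted p = 0.000606), and 1.24 without that replicate. Its WT signal lay at the 82.9 percentile of all genes.

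The high-affinity IgE receptor consists of a ligand-binding alpha chain (Fcer1a), a signal-amplifying beta chain (Ms4a2) and a dimer of the gamma chain (Fcer1g), which other Fc receptors share. The beta chain gene rose, and the alpha chain gene was called lower, at a dim signal and with a call that several alternatives lost. Ms4a2 signal was 7.11, 8.19 and 7.11 in DKO, against 5.05, 5.56 and 5.08 in WT, with replicate 2 the highest within each group. The lowest DKO value stood well above the highest WT value. The rise was 2.24 (SE 0.268, 95% interval 1.64 to 2.84, limma adjusted p = 0.000683), ranked 12 among all rises.

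Fcer1a signal was 3.77, 3.96 and 3.80 in DKO, against 4.2, 5.08 and 4.31 in WT. The groups did not overlap, and 5 of the 6 values lay below the lower quartile of their array, WT replicate 2 being the one above it. Fcer1a fell by 0.68 (SE 0.199, limma adjusted p = 0.0421), a call lost with 7 of 15 alternatives, over which the adjusted p ran from 0.0122 to 0.126. The size of this fall is uncertain at so dim a signal. The call was lost without DKO replicate 1 (adjusted p = 0.124), 2 (0.0786) or 3 (0.126), and without WT replicate 2 the difference was -0.41 (adjusted p = 0.0287). Fcer1g, named here after its values were seen, was at 7.44, 7.88 and 7.44 in DKO and 7.61, 7.35 and 7.62 in WT, and did not pass the test (0.06, adjusted p = 0.812).

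**Figure D2:**
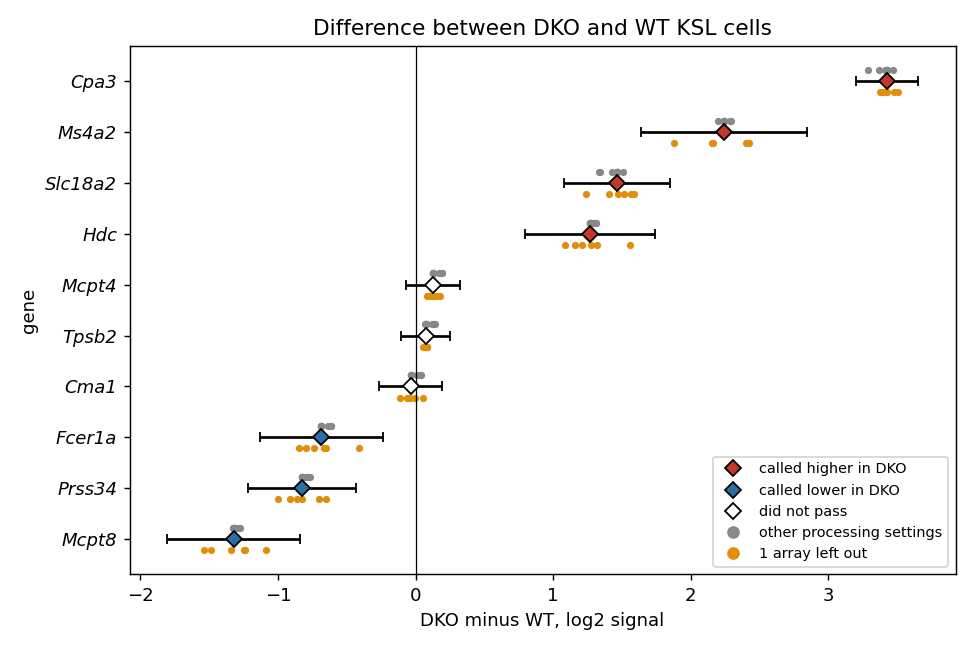
DKO minus WT difference in log2 signal (horizontal axis) of each granule gene, with its 95% interval from limma. Grey points above each marker are other processing settings and orange points below are fits with 1 array left out. The intervals of Cpa3, Ms4a2, Slc18a2 and Hdc lie above 0, those of Mcpt8, Prss34 and Fcer1a below 0, and only Cma1 has points on both sides.

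The replicates of a group were not ordered alike across the set. DKO replicate 2 lay 0.72 above its group mean for Ms4a2 and 0.45 above for Slc18a2, but 0.58 below it for Hdc and 0.47 below for Mcpt8. The same array deviated by 0.09 for Cpa3. WT replicate 2 lay above its group mean by 0.55 for Fcer1a, 0.35 for Prss34 and 0.33 for Ms4a2, and within 0.16 of it for the other genes of the set. No array was therefore high or low for all 7 called genes.

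**Figure D3:**
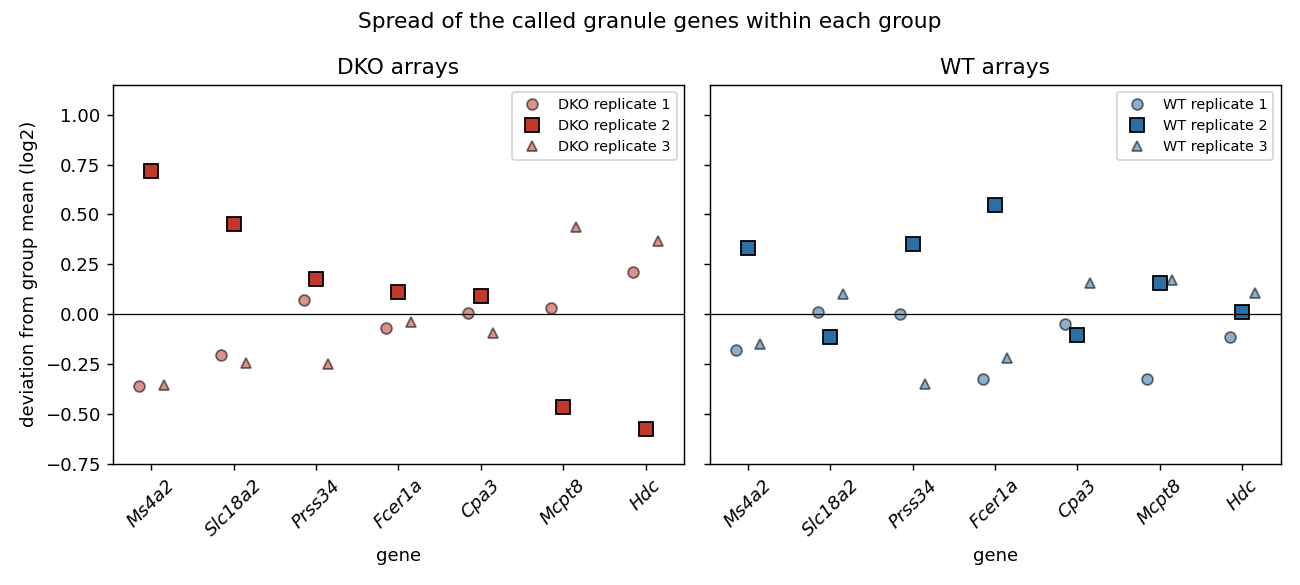
Deviation of each array from its group mean (vertical axis, log2 signal) for the 7 called granule genes, DKO arrays left and WT arrays right, with replicate 2 drawn large. DKO replicate 2 runs from 0.72 above the mean for Ms4a2 to 0.58 below it for Hdc.

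Genes related to mast cells, basophils and granules were read from lists of proteases, signalling proteins, receptors, regulators, mediators and exocytosis proteins. The protease list also holds genes of neutrophil and eosinophil granules, such as Elane and Prg2. The lists describe the surroundings of the set by their counts, beside backgrounds of 9.71% called higher and 7.69% called lower.

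Of 17 tested genes of other granule proteases and granule matrix proteins, 0 were called higher, 4 lower and 13 did not pass (median -0.24). The 4 were Elane, neutrophil elastase (-2.30, limma adjusted p = 4.67e-05), the related proteases Prss57 (-1.30) and Prtn3 (-0.60), and Prg2, the major basic protein of eosinophil granules (-0.95). The tryptase gene Tpsab1 and the mucosal chymases Mcpt1 and Mcpt2 lay below the lower quartile on all 6 arrays. Ctsg, cathepsin G, was at 9.07, 7.76 and 9.29 in DKO and 9.51, 9.65 and 9.72 in WT. It did not pass (-0.92, adjusted p = 0.0829), with DKO replicate 2 again apart from the other DKO samples.

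Of 19 tested surface receptors 10 were called higher, 2 lower and 7 did not pass, and the list's median was 0.58. Cd200r3, an activating receptor of mast cells and basophils, was at 7.57, 7.84 and 7.63 in DKO and 3.97, 4.38 and 3.84 in WT (3.62, limma adjusted p = 2.74e-06). Its WT values lay below the lower quartile, which leaves the size of that rise uncertain, and its signal may be shared with the similar gene Cd200r4 (3.09). Csf2rb2, a beta chain of the interleukin-3 receptor nearly identical to Csf2rb, rose by 2.05, and the inhibitory IgG receptor Fcgr2b by 1.33. Cd69 and Cd244a fell by 0.51 and 0.34, with adjusted p = 0.0291 and 0.0406. The call of Cd69 was lost in 6 of 17 alternatives, among them those without DKO replicate 1 (adjusted p = 0.106) or 2 (0.0902) and WT replicate 1 (0.0594) or 2 (0.079). The call of Cd244a was lost in 8 of 17, among them those without DKO replicate 1 (adjusted p = 0.144), 2 (0.0559) or 3 (0.12) and WT replicate 1 (0.0673) or 2 (0.102).

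Of 20 tested genes of IgE receptor signalling 4 were called higher, 1 lower and 15 did not pass (median -0.01). Lcp2, the adaptor SLP-76 that links the receptor's kinases to phospholipase C, rose by 1.43 (limma adjusted p = 2.97e-05), the kinase gene Btk by 1.08, the adaptor gene Lat by 0.73 and Gab2 by 0.50. Prkcb, a protein kinase C gene, fell by 0.49. Of 18 tested exocytosis genes 5 were called higher, 0 lower and 13 did not pass (median 0.00). They included Stx3 (1.00), Snap23 (0.82) and Stxbp3 (0.70), which encode parts or partners of the membrane fusion machinery, and Lyst (0.53), a regulator of granule size.

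Of 21 tested regulators 3 were called higher, 4 lower and 14 did not pass (median -0.15). Runx1 (0.82), Ikzf2 (0.75) and Stat5b (0.40) were higher, and Irf8 (-0.87), Nfil3 (-0.65), Spi1 (-0.62) and Cebpa (-0.60) lower. The call of Stat5b was lost in 2 of 17 alternatives, without DKO replicate 1 (adjusted p = 0.0513) or 2 (0.0594). Cebpa, which encodes a factor of granulocyte formation, was at the threshold (limma adjusted p = 0.0499), its groups overlapped, and 9 of 17 alternatives lost the call, among them those without DKO replicate 1 (adjusted p = 0.114), 2 (0.162) or 3 (0.0566) and WT replicate 2 (0.108) or 3 (0.149). Gata2 and Mitf, needed for mast cell formation and named here after their values were seen, did not pass, at 0.24 (adjusted p = 0.16) and -0.37 (adjusted p = 0.113).

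Of 21 tested mediator genes 3 were called higher, 2 lower and 16 did not pass (median 0.04). Il4, a cytokine that basophils and mast cells make, rose by 0.75 (limma adjusted p = 0.00479), Csf1 by 0.75 and Alox5ap, the helper of leukotriene synthesis, by 0.41. Ccl3, a chemokine gene, fell by 1.33, and Maoa, a monoamine oxidase gene, by 0.61 with overlapping groups. The call of Alox5ap was lost in 8 of 17 alternatives, among them those without DKO replicate 1 (adjusted p = 0.0627), 2 (0.0512) or 3 (0.111) and WT replicate 1 (0.0741) or 3 (0.0709). The call of Maoa was lost in 8 of 16, among them those without DKO replicate 1 (adjusted p = 0.132) or 2 (0.153) and WT replicate 2 (0.125) or 3 (0.106).

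**Figure D4:**
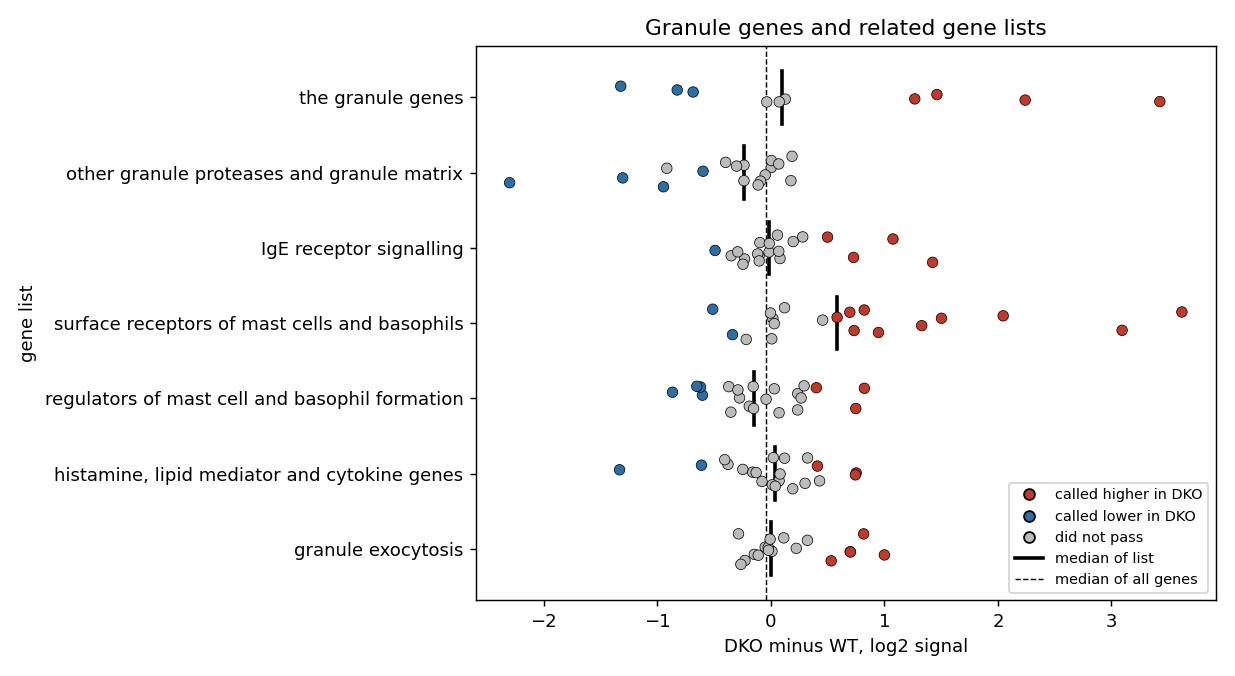
DKO minus WT difference in log2 signal (horizontal axis) of each tested gene in the granule set and 6 related lists (rows), where the thick bar is the list's median and the dashed line the median of all genes, -0.04. Vertical scatter within a row has no meaning. The surface receptors have the highest list median, 0.58. The other granule proteases, a list that also holds neutrophil and eosinophil granule genes, have the lowest, -0.24.

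Markers of mast cells, basophils and other cells were set beside these results and backgrounds of 9.71% called higher and 7.69% called lower. The first 2 lists are not separate from the set. The mast cell list holds Cpa3, Cma1, Mcpt4 and Tpsb2, and the basophil list Mcpt8 and Prss34. Kit, also in the mast cell list, is a marker by which KSL cells are sorted. Of 10 tested genes biased to mast cells 7 lay below the lower quartile on all 6 arrays, among them Cma1, Mcpt4, Tpsab1, Mrgprb1 and Mrgprb2, and the 2 called higher were Cpa3 and Kit. The summed linear signal of that list was 3336 to 3951 in DKO and 1096 to 1262 in WT, most of it from Cpa3 and Kit. Of 7 genes biased to basophils 3 were called higher (Cd200r3, Itga2 and Il4), 3 lower (Mcpt8, Prss34 and Cd69) and 1 did not pass, with summed signals of 776 to 836 in DKO and 660 to 745 in WT. The basophil list thus moved in both directions.

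Markers of other lineages are given beside the same backgrounds, 9.71% called higher and 7.69% called lower. Of 9 megakaryocyte and platelet markers 5 were called higher, with summed signals of 1638 to 2402 in DKO and 1089 to 1194 in WT. Of 14 neutrophil and monocyte markers 1 was called lower, with sums of 508 to 539 in DKO and 584 to 834 in WT, and 4 of them, including Ltf and Ly6g, lay below the lower quartile on every array. Of 7 eosinophil markers 2 were called higher and 1 lower, with overlapping sums of 291 to 317 in DKO and 276 to 358 in WT. Of 9 erythroid markers 2 were called lower, with overlapping sums of 1410 to 1740 in DKO and 1637 to 2154 in WT. Of 8 B cell markers 1 was called lower, Vpreb1 (-1.59), with sums of 435 to 510 in DKO and 689 to 865 in WT. Most of that gap came from Vpreb1 alone, and 7 markers did not pass. Of 10 T and NK cell markers 1 was called lower, Nkg7 (-2.02), with sums of 374 to 404 in DKO and 799 to 834 in WT. Nearly all of that gap came from Nkg7 alone, and 9 markers did not pass. Of 12 macrophage and dendritic cell markers 0 were called, with overlapping sums of 603 to 1046 in DKO and 667 to 703 in WT. The sum of 1046 was that of DKO replicate 1, where H2-Aa stood at 9.05, beside 6.45 and 7.76 in the other DKO samples. The part of any of these lineages in the granule gene differences was not tested.

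Genes whose signals ran most like those of the ends of the set were picked by Pearson correlation over the 6 arrays, a description that 2 separate groups alone can make high. For Cpa3 they were Nipbl, Btk and Pip4k2a, with r of 0.999, 0.999 and 0.998 and differences of 0.65, 1.08 and 1.37. For Mcpt8 they were Prkg2, Sdc3 and Lgals1, with r of 0.999, 0.997 and 0.996. Of these Lgals1, which encodes galectin-1, was at 9.22, 8.74 and 9.68 in DKO and 10.28, 10.60 and 10.57 in WT, and fell by 1.27 (limma adjusted p = 0.00301). Prkg2 and Sdc3 differed by -0.16 and -0.26 without passing.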

How the data were processed

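RNA of KSL cells from 3 DKO and 3 WT samples was amplified with NuGEN's Pico system and hybridised to Affymetrix gene arrays, per the labels' protocols. The authors deposited log2 signals per probe set, which the sample titles name as gene-level RMA and the design text as preliminary MAS 5.0. Per the submitters' processing notes, the software was Affymetrix Expression Console 1.0. The log2 values spanned 1.25 to 13.7 and each array's median lay between 5.88 and 5.91, a range typical of RMA and not of linear MAS 5.0 signals. Of 35556 probe sets, 21789 had exactly 1 gene symbol, 1621 several and 12146 none. For each gene the brightest of these by mean over all arrays was kept, giving 19938 genes with no filter on dim signals. Each of the 10 granule genes had 1 such probe set. Entrez numbers of 19856 genes were found in RefSeq (GRCm38.p6), and 0 symbols needed an update. Build and annotation behind the signals are not stated in the labels used here.

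DKO was compared with WT by limma 3.58.1 in R 4.3.3 (lmFit, eBayes), with 5.52 prior and 4 residual degrees of freedom, on all genes, and the script was tested on simulated data. The number of arrays limits precision, and p-values measure the spread between these samples, whose separate origin rests on the label of biological replicates. An exact permutation test of 3 against 3 cannot go below 0.1 and was not used. Pairs of arrays differed with an SD of at least 0.186 over genes, so none was a copy. The genes, lists and tests were chosen with earlier results of these data known. Of each related list, up to 4 genes called in each direction with the smallest p were named, and any gene outside that rule is counted or named after its values were seen. Alternatives were quantile, median and cyclic loess normalisation, filters on the dimmest 25% or 50% of genes, other probe set choices, all probe sets, a variance trend with robust fit, array weights, a replicate block and left-out arrays. Summed linear signals are sums of 2 to the power of the log2 values.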

Additional observations from a re-analysis of the deposited data

How the results depend on the processing

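Cpa3, Ms4a2, Slc18a2, Hdc, Mcpt8 and Prss34 kept their direction and call in all 17 alternatives run for each, and Mcpt4 and Tpsb2 kept their direction and did not pass in the 15 and 16 run for them. The filters on dim genes removed Fcer1a, Cma1 and Mcpt4 at both levels and Tpsb2 at the stricter one, so these fits gave no value there. Fcer1a lost its call with quantile normalisation (-0.62, adjusted p = 0.084), median centring (-0.64, 0.0627), cyclic loess (-0.62, 0.0804) and all probe sets (-0.68, 0.115), and without any 1 of the DKO replicates, and the cause was not tested. Left-out arrays gave -0.85 to -0.41 for it. The Cma1 difference, which did not pass, was 0.036 with quantile normalisation, 0.0097 with median centring and 0.031 with cyclic loess, 0.052 without DKO replicate 3, and -0.11 to 0.05 with left-out arrays. Over all genes, left-out arrays gave 1250 to 1868 called higher and 843 to 1388 called lower, the counts furthest from the 1936 and 1533 of the full fit being 1250 higher without DKO replicate 3 and 843, 876 and 854 lower without DKO replicates 1, 2 and 3, fits with fewer samples. Same-numbered DKO and WT samples did not deviate together across genes (r of -0.01, -0.10 and -0.04). The labels state no pairing, and these correlations cannot settle whether a number marks a shared litter, batch or day. Replicate 2 was the highest in both groups for Ms4a2, Fcer1a and Prss34, but not for the other called granule genes. With the replicate number as a block 4 granule genes were called higher and 3 lower, as without it, and 1772 and 1272 of all genes. Median centring gave 2254 genes called higher and 1121 lower, and quantile normalisation 1588 and 1546.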

Other observations

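DKO replicate 2 also stood apart outside the granule set, in Kit and Ctsg, which were chosen after their values were seen. Kit was at 10.72 there and at 10.35 and 10.38 in the other DKO samples, while Ctsg was at 7.76 beside 9.07 and 9.29. Lgals1, picked above because it ran like Mcpt8 over these same arrays, had DKO values spread about evenly. It was at 8.74 in replicate 2, beside 9.22 and 9.68. In that sample Kit, Ms4a2 and Slc18a2 were thus the highest of the DKO values, and Ctsg, Lgals1, Hdc and Mcpt8 the lowest. Within WT, replicate 2 had the lowest Kit signal, 9.63, and the highest Fcer1a, Ms4a2 and Prss34 signals. These orders rest on single arrays.

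Eosinophil genes gave mixed results. Il5ra, the alpha chain of the interleukin-5 receptor of eosinophils, was at 4.97, 4.63 and 4.90 in DKO and 4.16, 3.86 and 4.21 in WT. It was called higher (0.76, limma adjusted p = 0.00338), with a size left uncertain by dim signals in both groups. The WT values and DKO replicate 2 lay below the lower quartiles of all genes, 4.89 to 4.97, and the other DKO values close to them. Siglecf, a lectin receptor of eosinophils, was at 6.74, 6.88 and 6.61 in DKO and 6.13, 5.91 and 6.10 in WT (0.70, adjusted p = 0.00207). Epx, the eosinophil peroxidase gene, and Ccr3, an eosinophil chemokine receptor gene, did not pass (-0.02 and -0.14, adjusted p = 0.918 and 0.515), and Prg2 fell, as described above.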
